A study of Mus musculus with 7 samples.

Results

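The Jun family consists of Jun, Junb and Jund, 3 of the 21887 protein-coding genes in the gene table used, and was chosen by name. Fos binding around them was read from lists of peaks of chromatin immunoprecipitation followed by sequencing (ChIP-seq) on mouse hippocampus. Peaks were taken as belonging to a gene when any base lay within 50 kb of its GRCm38 span. Of the 68873 regions that result from merging all lists, 34 met this rule, and they were made up of 65 peaks.

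Jun proteins are basic leucine zipper transcription factors. Fos cannot form a dimer with itself and binds DNA mainly as a heterodimer with a Jun protein, and the pair is known as AP-1. AP-1 binds the heptamer TGACTCA or TGAGTCA, and the mouse Jun promoter holds variant sites through which AP-1 and related factors are known to act on Jun itself. Jun and Junb are immediate early genes of neurons, whereas Jund is known for a high level in unstimulated tissue. None of the 3 genes has an intron.

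All mice were wild-type C57BL/6J, aged 2 months. The kainic acid group (3 libraries) received the glutamate receptor agonist kainic acid into the peritoneum, 2 injections of 10 mg/kg given 30 min apart. The kainic acid animals used had seizures of level 4, and tissue was collected 1 h after the first injection. The saline group (3 libraries) received PBS, and 1 further library was input chromatin, for which no peak list was used here. The antibody against Fos was the same in both groups. The number of animals behind a library is not stated in the labels, so the spread between libraries may be technical. The hippocampus was used whole, and more cells with a bound site cannot be told apart from more binding per cell.

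The lists differed greatly in length, which sets how much can be read from a missing peak. They held 15009, 63197 and 29650 peaks in kainic acid replicates 1, 2 and 3, and 7, 3277 and 2 peaks in saline replicates 1, 2 and 3. The narrowest peak measured 207 to 270 bp in the kainic acid lists and 202 bp in saline replicate 2, but 49 and 76 bp in saline replicates 1 and 3. Those 2 short lists had 0 peaks near any Jun family gene, so every saline statement rests on saline replicate 2. Library read totals were not used here. As a guide to depth, the reads stacked over a summit (the pileup) were solved from each peak's deposited fold and p, and ran from 12 to 119 for the 65 peaks. As a description of tissue, 8 of 8 hippocampal neuron genes, 5 of 8 glial genes and 4 of 8 liver genes had a region called in 2 or more kainic acid lists within 50 kb, against 62.7% of all protein-coding genes. For regions called in all 3 lists the counts were 7 of 8, 4 of 8 and 4 of 8, so these counts do not identify the tissue, and a peak is not a measure of expression.

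Of the 3 annotated start sites used, that of Jun was the only one with a peak on the promoter itself, in 1 list of each group. Jund has 2 annotated transcripts, and any other start of it was not considered. Jun lies at chromosome 4, 95049036 to 95052222, on the minus strand. The 250 bases before its start, chr4:95052223-95052472 of GRCm38.p6 as RefSeq gives them, are shown because a peak of kainic acid replicate 2 and one of saline replicate 2 both reached into them. They are written 5′ to 3′ on the minus strand, with 2 variants of the cyclic AMP response element (CRE) in capitals.

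Jun promoter: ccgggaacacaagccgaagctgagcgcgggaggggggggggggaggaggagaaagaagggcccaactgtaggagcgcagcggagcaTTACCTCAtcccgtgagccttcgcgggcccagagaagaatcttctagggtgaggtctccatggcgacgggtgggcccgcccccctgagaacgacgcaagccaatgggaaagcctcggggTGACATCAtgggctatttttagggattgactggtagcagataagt

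The first variant, TTACCTCA, lies from −164 to −157 relative to the start, and the second, TGACATCA, from −45 to −38. The saline replicate 2 peak covered both, and the kainic acid replicate 2 peak covered TGACATCA but not TTACCTCA. These 2 variants were searched for because they are sites of the Jun promoter, so their presence there was fixed in advance and is not a finding. On both strands together, TTACCTCA was found in 0.728% and TGACATCA in 2.93% of the 32851 promoter windows of the same length in the RefSeq table. The AP-1 heptamer TGACTCA or TGAGTCA (4.46% of windows), the CRE TGACGTCA (1.55%) and the CArG box, the core of the serum response element (1.47%), were not in this window. The corresponding windows of Junb and Jund held none of these 5 motifs, and no peak of any list touched them. A match of letters does not show that a factor was bound there.

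Kainic acid lists held several peaks around each gene. Jun had 4, 7 and 6 peaks in kainic acid replicates 1, 2 and 3, and 0, 1 and 0 in saline replicates 1, 2 and 3. Junb had 3, 9 and 5 with kainic acid, and 0, 5 and 0 with saline. Jund had 3, 13 and 7 with kainic acid, and 0, 2 and 0 with saline. For Jun and Jund every kainic acid list exceeded every saline list, which was also true of 33.5% of all protein-coding genes. For Junb the groups overlapped, because saline replicate 2 matched kainic acid replicate 3 and exceeded replicate 1.

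**Figure D1:**
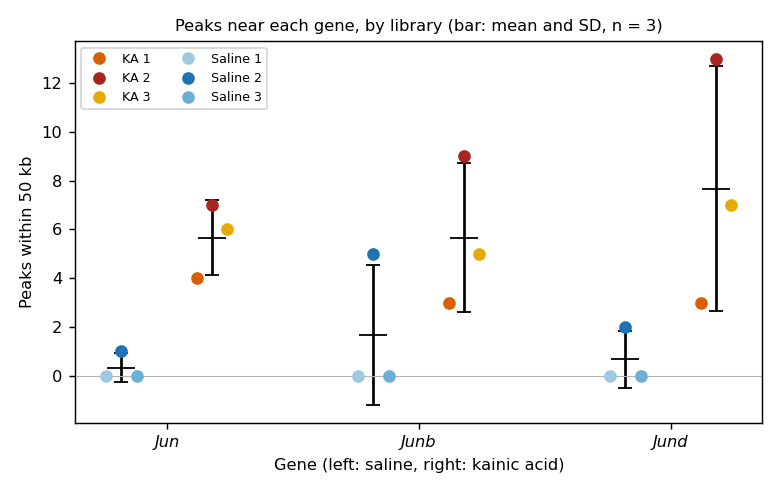
Number of peaks within 50 kb of each gene (vertical axis, peaks per list) in the 3 saline (left) and 3 kainic acid (right) libraries of Jun, Junb and Jund. Points are libraries, horizontal bars are means and whiskers are SD (n = 3); KA stands for kainic acid. Saline replicate 2 at 5 peaks reaches into the kainic acid points of Junb, while the groups are apart for Jun and Jund.

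The mean difference between kainic acid and saline was 5.33 peaks for Jun (5.67 ± 1.53 against 0.333 ± 0.577, SD, n = 3 each), with p = 0.1 in the two-sided exact permutation test. It was 7 for Jund (7.67 ± 5.03 against 0.667 ± 1.15), again with p = 0.1 in the exact permutation test. It was 4 for Junb (5.67 ± 3.06 against 1.67 ± 2.89), with an exact permutation p = 0.3. With 3 libraries against 3 the smallest possible p is 0.1, so none of the 3 comparisons could reach the usual threshold, and adjusted over the 3 genes the exact permutation p were 0.15, 0.15 and 0.3. The difference exceeded the SD of both groups for Jun, Junb and Jund, although the libraries overlapped for Junb. Saline replicates 1 and 3 had 0 peaks here, so the saline SD is set by saline replicate 2 alone. It does not measure a spread between replicates. Without kainic acid replicate 2 the difference was 2.33 for Junb and 4.33 for Jund. With each kainic acid list cut to its 3277 strongest peaks by fold, the length of saline replicate 2, the differences were 1 for Jun, 0.333 for Junb and 0 for Jund.

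Replicate support was counted over merged regions, and a region called in 2 or more kainic acid lists is termed a replicated region. Replicated regions numbered 5 for Jun, 5 for Junb and 7 for Jund, 17 in all, and 62.7% of all protein-coding genes had at least 1. The median over all genes was 1 region and the upper quartile 3. The share of genes with as many or more was 12.3% for Jun and Junb and 6.05% for Jund, although the Jun family genes are short (1840 to 3187 bp against a median span of 17169 bp) and so have smaller windows. Regions in all 3 kainic acid lists numbered 3, 3 and 2 for Jun, Junb and Jund, and 42.5% of genes had at least 1. The share of genes with as many or more of these was 9.56% for Jun and Junb and 19.9% for Jund. The 7 regions of Jund rested most on single lists, with 2 left without kainic acid replicate 2 and 3 left without replicate 3. Without replicate 3, Jun and Junb had 3 each, and without replicate 2 Junb had 3.

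**Figure D2:**
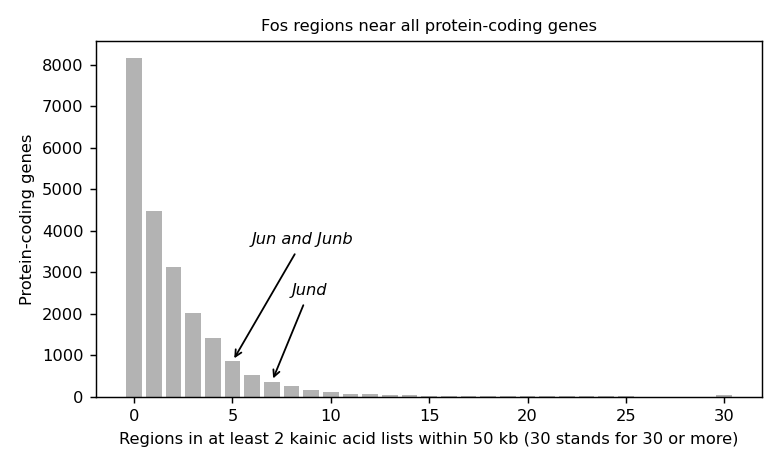
Number of protein-coding genes (vertical axis) by how many replicated regions lie within 50 kb (horizontal axis, with 30 standing for 30 or more). The arrows mark Jun and Junb at 5 regions and Jund at 7, to the right of the median of 1.

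A further 15 regions were in a single kainic acid list, and 13 of them had no saline peak. Of these 13, 11 came from kainic acid replicate 2, the longest list, 2 from replicate 3 and 0 from replicate 1. Their folds lay between 2.50 and 5.44. Here and below, fold is the authors' own ratio of a peak over its local background, and the percentile is its rank in its own list in percent, with values near 0 for the strongest peaks.

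**Figure D3:**
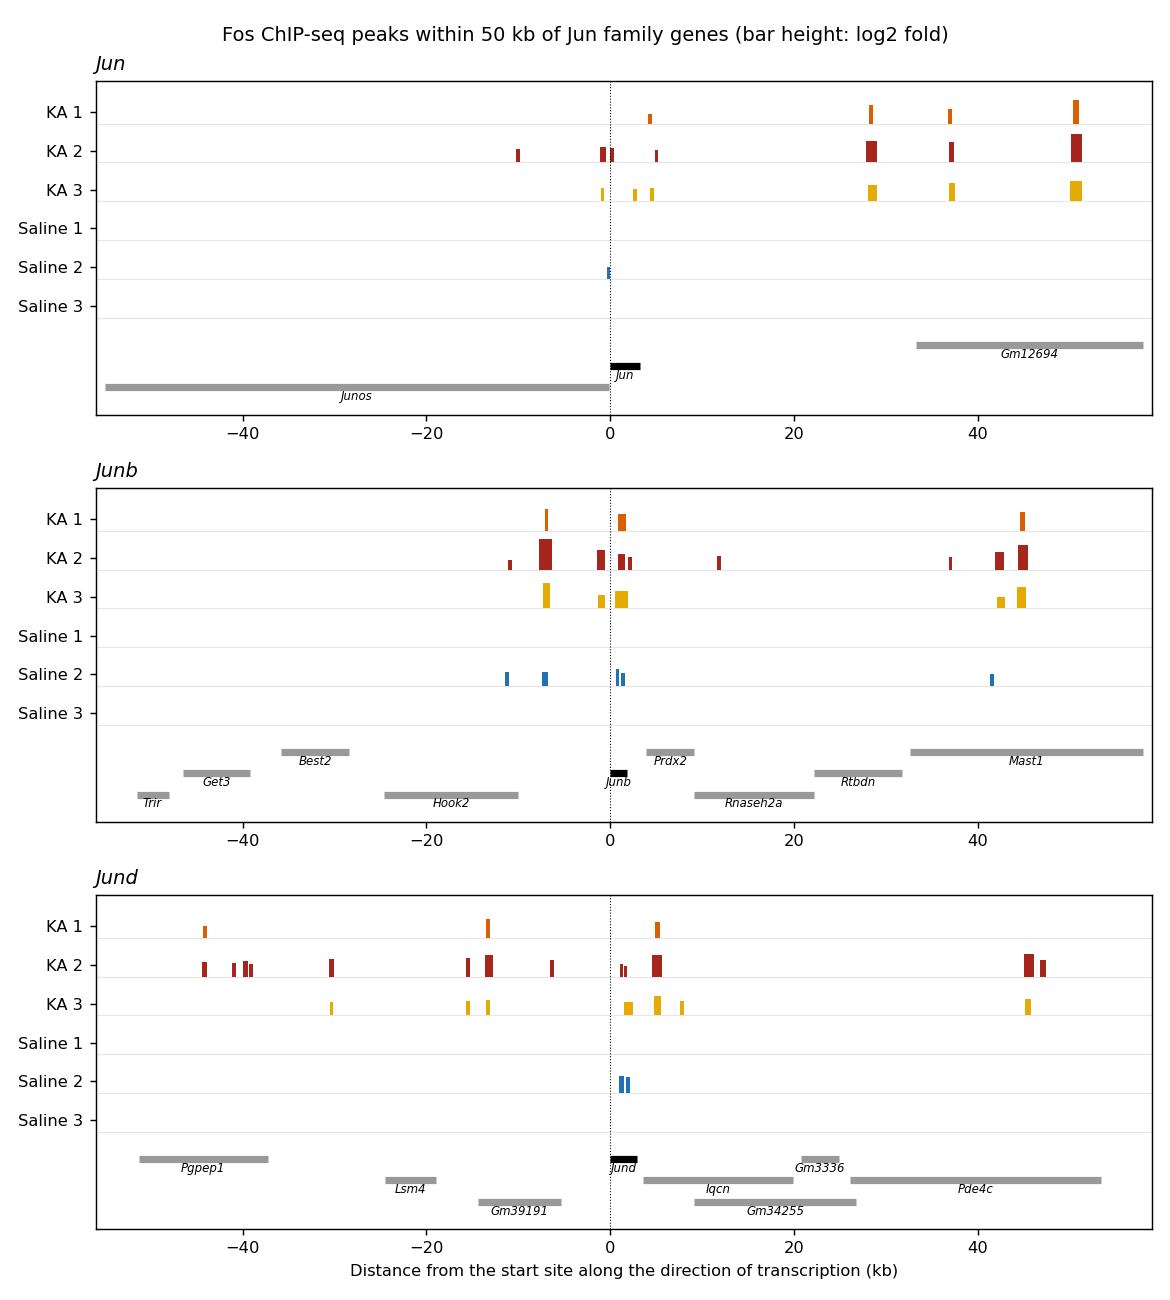
Peaks around Jun, Junb and Jund in the 6 lists, by distance from the start site in kb along the direction of transcription (horizontal axis), with bar height proportional to the log2 of the fold and peaks narrower than 0.4 kb drawn 0.4 kb wide. Black bars are the named gene, grey bars other genes of the table, cut at the edge of the plot, and KA stands for kainic acid. Peaks of saline replicate 2 sit mostly on the Jun family genes, while the tallest kainic acid bars sit away from them.

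At Jun the strongest sites lay far downstream of the gene, in a stretch with no other protein-coding gene in reach. The strongest was chromosome 4, 95000866 to 95002156, with its summit on average 50.6 kb past the Jun start site. Its fold was 11.0, 16.4 and 7.77 in kainic acid replicates 1, 2 and 3, at percentiles 1.12, 0.896 and 5.22. The pileups were 45, 70 and 51 reads, and no saline list had a peak there. It was the strongest peak near Jun in each kainic acid list. It lies inside the long non-coding RNA gene Gm12694, 46.9 kb from the Jun span and so close to the limit of the window, and its nearest protein-coding gene is Mysm1, 21.7 kb away. Mysm1 encodes a histone H2A deubiquitinase.

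A region 28.5 kb past the Jun start, chromosome 4, 95023198 to 95024355, had folds of 6.72, 8.54 and 5.16 at percentiles 10.2, 8.93 and 23.5. A region 37.1 kb past it, chromosome 4, 95014746 to 95015516, also inside Gm12694, had folds of 4.28, 7.56 and 6.16 at percentiles 54.4, 12.8 and 12.8. The 3 kainic acid summits of these regions fell within 208 and 99 bp of each other. Both regions were in all 3 kainic acid lists and in no saline list. No Jun region in all 3 lists lay closer to the gene than these.

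Close to Jun the peaks were weaker and shared by fewer lists. The region just before the start, chromosome 4, 95052728 to 95053394, had folds of 4.79 and 3.65 in replicates 2 and 3 (percentiles 41.4 and 64.3) and no peak in replicate 1. One just past the gene, chromosome 4, 95047569 to 95048095, had folds of 2.63 and 3.67 in replicates 1 and 3 (percentiles 99.0 and 62.9). On the promoter printed above, kainic acid replicate 2 had a peak of fold 4.34 and 22 reads whose summit lay 34 bp after the start. Saline replicate 2 had one of fold 3.24 and 16 reads whose summit lay 112 bp before it. The 2 peaks overlapped by 67 bp and their summits were 146 bp apart. The same stretch is the start of Junos, a long non-coding RNA gene on the opposite strand, so the peaks cannot be assigned to either gene. With a reach of 10 kb, which leaves out the 3 downstream regions, the strongest peak near Jun stood at a mean percentile of 67.8 in place of 2.41 ± 2.44 (SD, n = 3). Without kainic acid replicate 3 that mean was 1.01.

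Junb held the strongest site of the family in kainic acid replicates 2 and 3, while in replicate 1 the Jun site at 50.6 kb had the higher fold. Junb lies at chromosome 8, 84976909 to 84978748, on the minus strand, among 8 other protein-coding genes. The region at chromosome 8, 84985101 to 84986548, lies 6.94 kb before the Junb start, between Junb and Hook2, a gene of a microtubule linker protein whose span is 2228 bp away. The fold of this region was 9.20, 21.3 and 12.1 in kainic acid replicates 1, 2 and 3, at percentiles 2.61, 0.256 and 0.735, over 60, 119 and 101 reads. It was the strongest peak near Junb in every kainic acid list, with a mean percentile of 1.20 ± 1.24 (SD, n = 3), and 0.496 without replicate 1. Saline replicate 2 also had a peak there, of fold 4.05 and 21 reads, at percentile 54.2 of its own list. Its summit was 36, 56 and 90 bp from the summits of kainic acid replicates 1, 2 and 3. The pileups are not scaled between libraries and were not tested against each other.

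A second site in all 3 kainic acid lists lay inside Mast1, a microtubule-associated kinase gene, 44.9 kb past the Junb start (chromosome 8, 84933321 to 84934454). Its folds were 6.70, 11.6 and 8.51 at percentiles 10.6, 3.20 and 3.69, the 3 summits fell within 20 bp, and no saline list had a peak in it. A region in replicates 2 and 3 lay next to it, 42.5 kb past the start, with folds of 6.02 and 3.14. Closer to the gene, a region 1.13 kb before the Junb start (chromosome 8, 84979314 to 84980223) had folds of 7.05 and 3.91 in replicates 2 and 3 and no peak in replicate 1 or in saline.

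The Junb gene body itself was called in all 3 kainic acid lists and in saline replicate 2. The merged region, chromosome 8, 84976837 to 84978195, had folds of 5.42, 4.85 and 5.62 in kainic acid replicates 1, 2 and 3, at percentiles 23.8, 40.5 and 17.5, over 36, 23 and 58 reads. Saline replicate 2 had 2 peaks in it, with summits 760 and 1455 bp after the start, and the stronger had a fold of 5.37 over 22 reads, at percentile 7.54 of that list. The fold of the stronger saline peak lay inside the range of the kainic acid folds, although each is a ratio to its own library's background. The remaining saline replicate 2 peaks were at Hook2 (fold 4.13) and at the annotated start of Mast1 (fold 3.24), and neither had a kainic acid peak in its region.

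Jund had the most regions of the family and no dominant one. Jund lies at chromosome 8, 70697739 to 70700616, on the plus strand. The strongest peak within reach belonged to a different region in each kainic acid list, at percentiles 12.4, 6.42 and 7.25, a mean of 8.70 ± 3.25 (SD, n = 3). The region 13.3 kb before the start, chromosome 8, 70684126 to 70684961, inside the non-coding RNA gene Gm39191, had folds of 6.45, 8.56 and 4.90 in replicates 1, 2 and 3. The region 5.18 kb after the start, chromosome 8, 70702234 to 70703343, inside Iqcn, had folds of 5.03, 8.74 and 7.16, with the 3 summits within 50 bp. These were the only Jund regions in all 3 kainic acid lists, and neither had a saline peak. The region inside Pde4c, a cyclic AMP phosphodiesterase gene, 45.5 kb after the start, had folds of 9.45 and 5.16 in replicates 2 and 3 and none in replicate 1. The other 3 replicated regions away from the gene lay 44.2, 30.4 and 15.4 kb before the start, with folds from 3.16 to 6.75.

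On Jund itself the peaks of saline replicate 2 had higher folds than the kainic acid peaks in the same regions. Saline replicate 2 had a peak with its summit 1087 bp after the start, of fold 5.26 over 34 reads (chromosome 8, 70698649 to 70699206). Its percentile was 8.99. At the same place kainic acid replicate 2 had a fold of 3.54 over 29 reads, at percentile 77.8, and replicates 1 and 3 had no peak. A second saline replicate 2 peak, with its summit 1968 bp after the start, had a fold of 5.19 over 19 reads, at percentile 12.1. The region around it held peaks of kainic acid replicates 2 and 3, of fold 2.84 and 3.92. The replicate 3 peak overlapped the saline peak, with summits 172 bp apart. The replicate 2 peak did not overlap it, and their summits were 384 bp apart. A difference between the groups at these positions was not tested, since saline values come from 1 library and folds are scaled within a library.

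**Figure D4:**
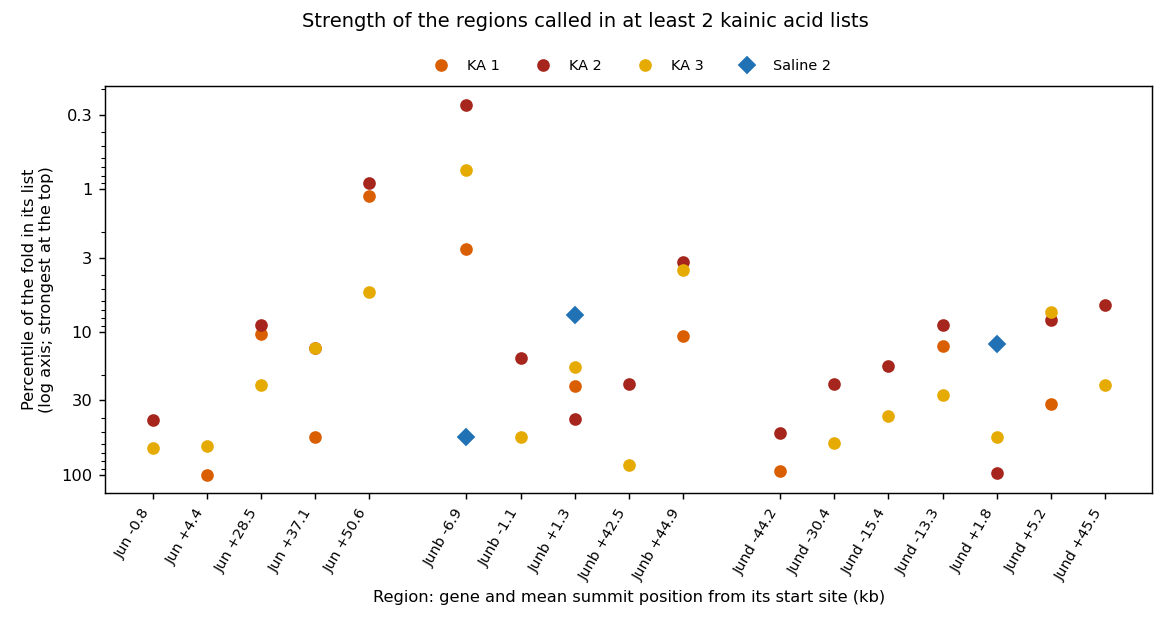
Percentile of the fold in its own list (vertical axis, log scale, strongest at the top) for the 17 replicated regions, ordered by gene and by mean summit position from the start site in kb. Each point is 1 list, KA stands for kainic acid, and diamonds are saline replicate 2. The region 6.94 kb before Junb and the one 50.6 kb past Jun are highest, and saline diamonds appear in 3 regions.

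By median rank, the peaks on the Jun family genes stood above the family's other peaks in saline replicate 2 and below them in each kainic acid list. In saline replicate 2, 5 of 8 peaks lay on the span of a Jun family gene, at a median percentile of 12.1, against 54.2 for the other 3. In kainic acid replicates 1, 2 and 3 the peaks on a span numbered 1 of 10, 4 of 29 and 3 of 18. Their median percentiles were 23.8, 64.4 and 53.8, against 12.4, 29.2 and 27.5 for the peaks off the spans. These medians describe few peaks, and ranks from lists of such different lengths show no change in binding. All 3 genes had a peak of saline replicate 2 on the span (that of Jun reached 2 bp into it), as had 11.4% of protein-coding genes, and all 3 had one within 50 kb, as had 30.2%. As many of these peaks as Junb or more (5) were near 0.726% of genes, and as many as Jund or more (2) near 10.7%.

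Of the 17 replicated regions, 3 had a saline peak, 2 near Junb and 1 near Jund. At least 1 such region was within reach of 6.62% of protein-coding genes, and as many as near Junb or more were within reach of 0.567%. All 3 came from saline replicate 2, so the number without that list is 0. Of the 8 regions in all 3 kainic acid lists, 6 had no saline peak, and the share over all such regions of the series is not given here. Saline replicate 2 held 3277 peaks against 15009 to 63197 in the kainic acid lists, so these 6 are not shown to be particular to kainic acid. Jun and Junb each had a region in all 3 kainic acid lists with a mean percentile of 5 or less, as had 5.72% of protein-coding genes, and Jund had none. That limit of 5 was set after the values had been seen.

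Genes of other AP-1 subunits and of the Jun kinase pathway were counted in the same way. Among 17 genes of Fos, Atf, Batf and Maf proteins and Jdp2, which can pair with Jun or with each other, 16 had a replicated region within 50 kb, against 62.7% of all protein-coding genes. The same number had a region in all 3 lists, against 42.5%. Their median was 3 replicated regions and their range 0 to 12. Jund, with 7 regions, was matched or exceeded by 3 of the 17, namely Fosb (12), Atf3 (7) and Fosl1 (7), and Jun and Junb, with 5, by 7 of the 17. By regions in all 3 lists, Jund, with 2, was matched or exceeded by 10 of the 17. Jun and Junb, with 3, were exceeded by Fosb (7), Fos (4) and Jdp2 (4). In the kinase pathway that phosphorylates Jun and the machinery of its turnover, 17 of 20 genes had a replicated region, and 11 of 20 (55%) had a region in all 3 lists against 42.5% of all genes. Mapk10, the gene of the neuronal Jun N-terminal kinase, had 19, and Cops5, Itch and Map2k7 had none. Many of these genes are longer than the Jun family genes and so have wider windows.

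By number of peaks in the 6 lists, the genes most like Jun were 3110009E18Rik, Scel and Furin, each differing from it by 1 peak in all. Those most like Junb were Rab25, Bbc3 and Prkci, each differing by 2 peaks. For Jund they were Nfkbie, which had the same 6 numbers, and Insyn1 and Ddx17, which differed by 1. Likeness was the sum over the 6 lists of the absolute difference in peaks within 50 kb, and the distance of the nearest was shared by 12 genes for Jun and 5 for Junb. For Jund, 12 genes shared the distance of 1. Ties were ordered by the percentiles of the best kainic acid peaks. Likeness in number is not likeness in strength, as the best peak in kainic acid replicate 1 stood at percentile 67.4 near Nfkbie and 12.4 near Jund.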

How the data were processed

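Each of the 6 deposited lists holds the peaks of 1 library, none pooled. Per the submitters' processing notes, the authors used Trim Galore 0.6.4, Bowtie2 2.3.4.3, MACS2 and deepTools 3.5.0 with the build mm10. The deposited peak names carry a mapping quality of 30, but do not state how it was applied. Neither the calling cutoff nor the control is given in the sources used here. The deposited fold is a linear ratio to local background, the deposited −log10 p and −log10 q (p-value and q-value) belong to 1 library, and the deposited score is 10 times the −log10 q. None is scaled between libraries, so a low or missing value may reflect depth or calling.

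Peaks were merged at 1 bp of overlap. Gene spans came from a RefSeq table of GRCm38.p6, start sites and promoters from its promoter table, where all 3 genes matched. Pileups were solved by taking the fold as the ratio of pileup to background, 1 read being added to each, and p as a Poisson tail. Of 65 peaks, 65 were solved within 0.001. The solver, the merging and the permutation test were tested on simulated data. Groups were compared by exact permutation, in Python 3.11.15 with scipy 1.17.1. Described singly were regions in at least 2 lists and all saline peaks; likeness excluded genes within 1 Mb of the family. Members and gene lists were chosen with earlier results of these data known. Alternatives were cutoffs, reach, list length, support, overlap and each list left out. Sequences under peaks were not analysed here.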

Additional observations from a re-analysis of the deposited data

How the results depend on the processing

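Of 183 recomputed values, 51 counts or percentiles moved, 1 difference between groups fell to 0 and 0 reversed. The other 131 were counts and percentiles near the reported value, or differences judged by direction alone, some of which changed much in size or in p. Some of the 131 could not change. Leaving out a saline list cannot alter a kainic acid percentile, and the replicate block cannot alter a mean difference. The cause of each move was not tested beyond what the setting itself removes. Values are given in the order Jun, Junb, Jund. Replicated regions numbered 5, 5 and 7. They were 3, 3 and 2 at a −log10 q of at least 10, 2, 3 and 2 with a reach of 10 kb, and 8, 8 and 11 with 100 kb. They were 3, 3 and 4 with lists cut to the 15009 peaks of the shortest kainic acid list, 1, 2 and 0 with lists cut to 3277 peaks, 3, 3 and 2 when all 3 lists were required, and 9, 9 and 14 when any list counted. Leaving out 1 list gave 3 to 5, 3 to 5 and 2 to 7. The difference in peaks was 5.33, 4 and 7. It was 2.33, 3.33 and 2.67 at a −log10 q of at least 10, 2.33, 2.33 and 2 with a reach of 10 kb, and 9.33, 7.33 and 12.7 with 100 kb. It was 3, 1.67 and 3.67 with 15009 peaks and 1, 0.333 and 0 with 3277 peaks, and ranged from 4.67 to 6.17, 2.33 to 5.67 and 4.33 to 9.33 with 1 list left out. Over all settings the exact permutation p ranged from 0.1 to 0.3, 0.1 to 1 and 0.1 to 1.

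Replicated regions with a saline peak numbered 0, 2 and 1. Junb had 1 at a −log10 q of at least 5, 0 at 10 and 1 with 3277 peaks, and 0 to 2 with 1 list left out. Jund had 0 at a −log10 q of 5 or 10, with 15009 or 3277 peaks and when all 3 lists were required, 2 when any list counted, and 0 to 1 with 1 list left out. Jun had 1 when any list counted.

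The mean percentile of the strongest peak was 2.41, 1.20 and 8.70. At a −log10 q of at least 10 it was 8.70, 4.81 and 33.3, and with 3277 peaks 23.2, 7.84 and 61.2. With 15009 peaks it was 5.07 for Jun and 17.9 for Jund, with a reach of 10 kb 67.8 and 15.7, and for Jund 13.5 at a −log10 q of 5. With 1 list left out it ranged from 1.01 to 3.17, 0.496 to 1.67 and 6.84 to 9.83.

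The labels give both groups the numbers 1 to 3 but state no pairing. Pairs were therefore not assumed. Deviations of same-numbered libraries correlated at 0.354, 0.347 and 0.0137 over all genes, and those of other pairs at −0.354 to 0.354. These correlations cannot decide the pairing, because saline replicates 1 and 3 hold 7 and 2 peaks. The deviations of those short lists mirror the peak numbers of saline replicate 2. With the replicate number as a block the differences are 5.33, 4 and 7 by construction. The exact permutation p was then 0.25 for each gene, the smallest that 3 pairs allow. Saline replicates 1 and 3 both correlated best with kainic acid replicate 1, which follows from their short lists and says nothing about pairing. Library depth was not measured here, and 2 of the 3 saline lists hold fewer than 10 peaks, so little can be read from a missing saline peak.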
